A study of Mus musculus with 4 samples.

Results

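The 10 genes examined belong to the MHC class I antigen presentation pathway and were measured in primary cultured mouse astrocytes: H2-K1, H2-D1, B2m, Tap1, Tap2, Tapbp, Psmb8, Psmb9, Psmb10 and Nlrc5. They were chosen by name, by matching the gene identifiers of the deposited tables, without their version, to GENCODE vM21 symbols. All 10 were found among 55487 genes, and all 10 were among the 15596 genes whose mean over the libraries reached 1 CPM, where CPM is a count scaled by the size of its library. The study holds 4 libraries of total RNA, 1 for each combination of genotype and treatment label. The genotype labels are OASIS wild type and OASIS deficient, where OASIS is the transcription factor encoded by Creb3l1, and the treatment labels are non-treatment and DNA damage by doxorubicin, a drug that breaks DNA. Cells 5 days past confluence were exposed to 1 µg/ml of the drug for 1 h and kept for 24 h after it was washed out. All cultures were kept in medium with 10% fetal bovine serum. The mouse strain, the kind of Creb3l1 allele, the age and sex of the animals and the number of animals behind a culture are not given in the labels.

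MHC class I molecules carry peptides from inside a cell to its surface, where CD8+ T cells read them. A class I molecule is a heavy chain, such as the products of H2-K1 and H2-D1, bound to beta-2 microglobulin, the product of B2m. The proteasome cuts proteins into peptides, and Psmb8, Psmb9 and Psmb10 encode the inducible catalytic subunits that replace constitutive ones in the immunoproteasome. Tap1 and Tap2 form the transporter that pumps peptides into the endoplasmic reticulum, and tapasin, the product of Tapbp, holds empty class I molecules beside it. Nlrc5 encodes the transactivator that acts on the promoters of many class I pathway genes, and interferons raise all of them. In the brain, class I expression is low at rest and rises in glia upon interferon exposure.

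Of the 10 genes, 6 (H2-K1, H2-D1, B2m, Tap1, Tapbp and Nlrc5) were lower in both libraries labelled deficient than in both libraries labelled wild type, an arrangement that 30.8% of all genes tested also had. Tap1 was the lowest relative to wild type in the untreated pair (4.68-fold), and B2m differed least of these 6 genes (1.31-fold). Psmb8, Psmb9 and Psmb10 had another pattern: each was over 2-fold higher in the deficient untreated library than in the wild-type untreated library, and each lay below the wild-type library when both carried the doxorubicin label, although for Psmb8 the interval of that ratio included 1. Tap2 stayed between 46.9 and 54.5 CPM in all 4 libraries.

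The promoter windows of some of the genes are shown first, and the part of promoter sequence in these differences was not tested. RefSeq windows on GRCm38.p6, from 250 bases before to 50 bases after the RefSeq start of each gene, were held for 8 of the 10 genes, all but Tap2 and Nlrc5. H2-K1, H2-D1 and B2m are printed because heavy chain and light chain form 1 molecule, and Tap1 because its RNA differed most in the untreated pair, each from 250 bases before the start through the first 30 bases, 5′ to 3′ on the strand of the gene. Capitals mark matches on either strand to 5 motifs: the NF-kB consensus, the core GAAANNGAAA of interferon-stimulated response elements, the closer spaced pair GAANNGAA, CCAAT, and the TGACG core of cyclic AMP response elements. The windows lie at chr17:34000318-34000597 (minus strand) for H2-K1, chr17:35262844-35263123 (plus strand) for H2-D1, chr2:122147437-122147716 (plus strand) for B2m and chr17:34187306-34187585 (plus strand) for Tap1.
H2-K1: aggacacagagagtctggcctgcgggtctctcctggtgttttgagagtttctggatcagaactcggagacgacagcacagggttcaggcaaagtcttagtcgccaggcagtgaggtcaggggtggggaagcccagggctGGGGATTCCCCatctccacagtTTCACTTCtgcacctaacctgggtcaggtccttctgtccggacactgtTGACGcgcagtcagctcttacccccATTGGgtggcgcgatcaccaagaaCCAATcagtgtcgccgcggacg
H2-D1: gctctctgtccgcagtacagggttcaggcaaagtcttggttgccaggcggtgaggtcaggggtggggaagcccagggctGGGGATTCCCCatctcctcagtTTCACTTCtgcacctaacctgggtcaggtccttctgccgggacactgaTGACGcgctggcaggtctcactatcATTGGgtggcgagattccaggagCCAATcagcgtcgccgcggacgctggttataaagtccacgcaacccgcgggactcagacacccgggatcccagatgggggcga
B2m: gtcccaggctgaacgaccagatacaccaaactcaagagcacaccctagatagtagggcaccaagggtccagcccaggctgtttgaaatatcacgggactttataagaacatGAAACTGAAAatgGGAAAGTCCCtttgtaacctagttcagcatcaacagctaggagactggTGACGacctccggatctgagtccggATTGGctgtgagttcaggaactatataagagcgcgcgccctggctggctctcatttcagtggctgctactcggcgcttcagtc
Tap1: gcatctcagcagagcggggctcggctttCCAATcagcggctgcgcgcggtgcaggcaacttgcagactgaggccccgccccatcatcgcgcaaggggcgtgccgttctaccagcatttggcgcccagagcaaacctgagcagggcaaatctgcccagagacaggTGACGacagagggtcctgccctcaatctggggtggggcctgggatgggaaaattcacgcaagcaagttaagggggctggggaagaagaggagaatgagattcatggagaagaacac

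The windows of H2-K1 and H2-D1 were alike: a local alignment of them was 90.4% identical over 228 columns. Both held, in the same order, 2 overlapping NF-kB matches, 1 GAANNGAA match, 1 TGACG match and 2 CCAAT matches. With the start base counted as 0, these began at -111, -110, -89, -41, -16 and 8 in H2-K1 and at -171, -170, -149, -101, -76 and -53 in H2-D1. Neither held GAAANNGAAA. B2m held 1 GAAANNGAAA match at -139, 1 NF-kB match at -126, TGACG matches at -78 and 44, the second outside the printed stretch, and 1 CCAAT match at -53. Tap1 held a CCAAT match at -222 and a TGACG match at -86, and Psmb9 held CCAAT at -8 and TGACG at -144. Tap1 and Psmb9 are read in opposite directions from RefSeq starts 226 bases apart, so that 275 bases of their windows are the same DNA. The GENCODE starts of Psmb9 (34187764), H2-D1 (35262730), Tapbp (33915899) and Psmb8 (34197721) lie outside the windows of these genes. Motif positions in them hold for the RefSeq starts only. Psmb10 held 2 GAANNGAA matches, Tapbp held 2 CCAAT matches and Psmb8 held none of the 5 motifs. Such matches are common: of 32851 mouse windows of this length, 8.46% held the NF-kB consensus, 3.44% GAAANNGAAA, 20.1% GAANNGAA, 37.4% CCAAT and 20.8% TGACG on either strand.

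Class I genes share similar sequence, which bears on how reads are divided between them. The longest protein-coding GENCODE transcripts of H2-K1 (1619 bases) and H2-D1 (2102 bases) were 88.4% identical over 1515 alignment columns. H2-K1 was 91.4% identical to H2-Q4, 88.3% to H2-Q6, 82.9% to H2-Q7, 84.4% to H2-T23 and 74.1% to H2-T22, each over the part that aligned. For H2-D1 these values were 91.6%, 89.8%, 86.8%, 82.9% and 74.0%. Of all stretches of 50 bases in the transcript, 8.79% of those in H2-K1 and 11.3% of those in H2-D1 also occurred in a transcript of another of these 7 class I genes. At 100 bases the shares were 0% and 3.84%. The values of single class I heavy chain genes are therefore uncertain where reads from such stretches were split, and the transcripts are of the reference strain while the strain of the cultures is not given.

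Of the 10 genes, 7 lie in the MHC region of chromosome 17 on GRCm38, by GENCODE coordinates: Tapbp (33915899 to 33929292), H2-K1 (33996017 to 34000347), Psmb9 (34181987 to 34187764), Tap1 (34187553 to 34197225), Psmb8 (34197721 to 34201454), Tap2 (34203527 to 34216321) and H2-D1 (35262730 to 35267499). B2m lies on chromosome 2 (122147686 to 122153083), and Psmb10 (105935735 to 105938444) and Nlrc5 (94434356 to 94527272) lie on chromosome 8. The library kit does not mark strand, so reads from overlapping genes cannot be told apart. On GENCODE coordinates, whose start of Psmb9 differs from that of RefSeq, Tap1 and Psmb9 overlap head to head by 212 bases. Tapbp shares 3422 bases with Zbtb22, which had 149 to 455 counts a library against 3625 to 9675 for Tapbp. Nlrc5 shares 748 bases with the long noncoding gene 9330175E14Rik, which had 45, 84, 4 and 10 counts in the wild-type untreated, wild-type doxorubicin, deficient untreated and deficient doxorubicin libraries. That order of libraries is used for every set of 4 values from here on.

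The libraries held 17481188 to 22559613 counts, and 3 counts, the limit taken for a count of 0, corresponded to 0.131 to 0.174 CPM. Creb3l1, the gene named by the genotype label, was at 48.5, 27.8, 15.1 and 11.9 CPM, lower in both deficient-labelled libraries and not absent from them; how the allele changes its transcript is not given, so this checks the labels only in part. The sex genes followed the treatment label: Xist had 1, 2547, 0 and 2742 counts, and the 4 Y-linked genes examined had 353 to 1567 counts in the untreated libraries and 0 in both doxorubicin libraries. Sex of the culture and treatment label cannot be told apart in these libraries. Targets of p53, which doxorubicin is known to raise, followed the genotype label: Cdkn1a was at 1296, 1495, 186 and 198 CPM, all 16 p53 targets tested were lower in the deficient-labelled libraries (median log2 fold change -2.75) and all 16 mitosis genes were higher (4.56). Between treatment labels edgeR called none of the 16 p53 targets, against 0.0192% of all genes called higher and 0.141% lower. With so few genes called, this count does not show whether the targets responded. Their median log2 ratio was 0.21 in the wild-type pair, with 13 above 0 and 3 below. In the deficient pair it was 0.07, with 9 above 0 and 7 below. Whether each library received the treatment of its label was not tested. Libraries are for this reason called by their labels throughout, and differences are differences between labelled libraries. All 10 astrocyte markers had counts in every library, and Gfap, the astrocyte intermediate filament gene, had 22712 to 113415 counts.

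With 1 library for each combination there is no replicate, so single pairs of libraries were compared by size without a p-value. A gene was counted as higher or lower by size where the log2 ratio of CPM + 1, after TMM scaling, was at least 1 or at most -1. Intervals on ratios are exact 95% intervals for counting error only. To use all 4 libraries, genotype and treatment were also fitted together with edgeR's quasi-likelihood test over the 15596 genes. This fit leaves 1 residual degree of freedom, which is the difference of the treatment ratios between the genotypes. A gene with such a difference therefore carries it as error in the fit. edgeR also draws the variance of a gene towards that of other genes (prior degrees of freedom 14.3). The p-values thus do not measure variation between replicate cultures. The SE printed with an edgeR fold change was derived from the test, as the absolute log2 fold change over the square root of the F statistic. It has the same limit. In the untreated pair, 9.79% of all genes were higher by size in the deficient library and 10.2% were lower. In the doxorubicin pair the shares were 10.7% and 9.55%. The genotype test called 12.6% of all genes higher and 10.6% lower at an adjusted p of at most 0.05. With the authors' TPM, a level per transcript length and library size, in place of scaled counts, the split of all genes in the untreated pair moved from 1527 higher and 1588 lower to 1221 and 2095. The genotype test gave 1972 and 1648 with edgeR on counts and 1344 and 1787 with limma on TPM, where both the test and the scale changed.

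**Figure D1:**
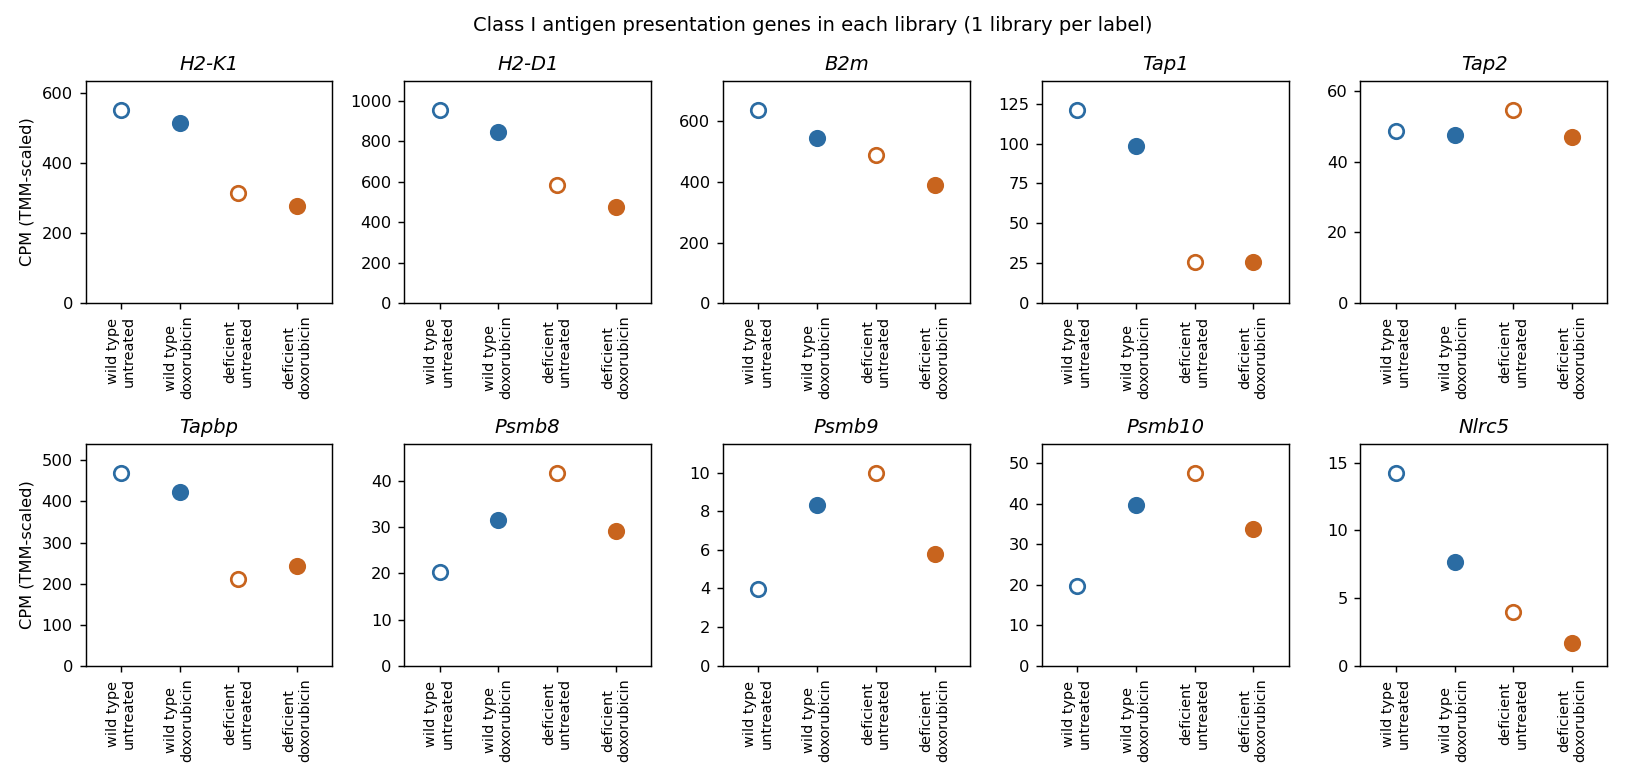
CPM of each of the 10 genes in each library, 1 panel a gene with its own axis from 0; open circles are untreated and filled circles doxorubicin libraries, blue wild type and orange deficient, with no error bars because each label has 1 library. H2-K1, H2-D1, B2m, Tap1, Tapbp and Nlrc5 have both orange points below both blue points, while Psmb8, Psmb9 and Psmb10 are lowest in the wild-type untreated library and highest in the deficient untreated library.

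Between genotype labels, 3 of the 10 genes were higher by size in the deficient untreated library (Psmb8, Psmb9, Psmb10) and 3 were lower (Tap1, Tapbp, Nlrc5). Over all genes tested, 9.79% were higher and 10.2% lower. The median log2 ratio was -0.54 for the 10 genes against -0.03 over all genes tested. In the doxorubicin pair none of the 10 was higher by size and 2 were lower (Tap1, Nlrc5), against 10.7% and 9.55% of all genes. The median there was -0.64 against 0.02, and all 10 ratios were below 0. The fit over all libraries called 6 of the 10 lower in the deficient-labelled libraries and none higher, against 10.6% and 12.6% of all genes. These were the same 6 genes whose groups did not overlap, against 30.8% of all genes in this direction and 31.2% in the other. DESeq2 and limma-voom, run on the same counts, also called 6 of the 10, while limma on the deposited TPM called 5 and edgeR without the treatment term called 4.

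Heavy chains and light chain make up the class I molecule itself. H2-K1 was at 552, 514, 316 and 279 CPM. H2-D1 was at 954, 848, 585 and 477 CPM. For both genes the 2 wild-type-labelled libraries stood well above the deficient-labelled ones, while the treatment labels differed little. H2-K1 was 1.75-fold lower in the deficient than in the wild-type library among untreated cells (95% interval 1.69 to 1.81) and 1.84-fold lower in the doxorubicin pair (1.78 to 1.90). H2-D1 was 1.63-fold lower (1.59 to 1.67) and 1.78-fold lower (1.74 to 1.82). Over all libraries the genotype fold change of H2-K1 was -0.84 on the log2 scale (SE 0.104, edgeR adjusted p = 2.35e-05), and that of H2-D1 was -0.77 (edgeR adjusted p = 2.33e-05). Neither heavy chain reached the 2-fold size rule in a single pair of libraries on scaled counts, and H2-K1 did in the doxorubicin pair on the deposited TPM (log2 ratio -1.11).

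B2m, whose product every class I heavy chain needs to reach the surface, was at 638, 544, 488 and 388 CPM. Its groups did not overlap, but the gap between the wild-type doxorubicin and the deficient untreated library was narrow. It was 1.31-fold lower in the deficient library without treatment (1.27 to 1.34) and 1.40-fold lower with it (1.36 to 1.44). The genotype fold change was -0.44 on the log2 scale (SE 0.100, edgeR adjusted p = 0.00485), smaller than those of both heavy chains. This call was lost when treatment was left out of the fit (edgeR adjusted p = 0.0667), where the adjusted p over the other alternatives ranged from 8.2e-05 to 0.0137. Per transcript length, B2m had the highest level of the 10 genes in each library, at 1683, 1388, 1116 and 919 TPM, ahead of H2-D1 (713, 599, 380 and 319 TPM), H2-K1 (640.1, 582, 320 and 268 TPM) and Tapbp (280.2, 238, 110 and 127 TPM).

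Peptide transport and loading were split between its members. Tap1 was at 121, 98.7, 25.9 and 25.8 CPM, so the deficient-labelled libraries were nearly equal and far below both wild-type-labelled libraries. Tap2, its partner in the transporter, was at 48.7, 47.6, 54.5 and 46.9 CPM, with overlapping groups. The RNA of the partner genes thus varied differently across the same 4 libraries. Tap1 was 4.68-fold lower in the deficient untreated library (4.23 to 5.19) and 3.83-fold lower in the doxorubicin pair (3.48 to 4.22). Over all libraries its log2 fold change was -2.08 (SE 0.182, edgeR adjusted p = 5.46e-07). For Tap2 the deficient over wild-type ratio was 1.12 (1.02 to 1.23) in the untreated pair and 0.986 (0.902 to 1.08) in the doxorubicin pair, and its log2 fold change in the fit was 0.07 (SE 0.197, edgeR adjusted p = 0.844). In TPM, Tap1 stood at 57.2, 44.7, 11.0 and 10.9 and Tap2 at 23.9, 22.4, 23.4 and 20.4, so that Tap1 was above Tap2 in the wild-type-labelled libraries and below it in the deficient-labelled ones.

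Tapbp, which encodes tapasin, was at 470, 423, 211 and 242 CPM. Both deficient-labelled libraries lay near each other and below both wild-type-labelled ones. It was 2.23-fold lower in the deficient untreated library (2.15 to 2.32) and 1.75-fold lower in the doxorubicin pair (1.69 to 1.81). Over all libraries its log2 fold change was -0.98 (SE 0.117, edgeR adjusted p = 1.68e-05). The gene Zbtb22 that overlaps it had 149, 325, 273 and 455 counts, a different order of libraries.

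**Figure D2:**
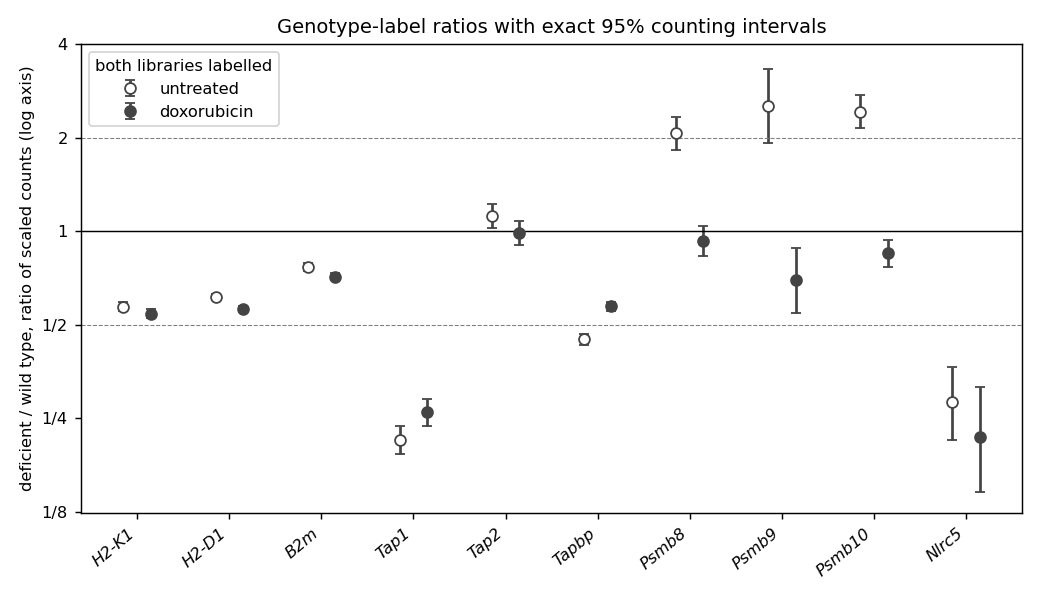
Deficient over wild-type ratio of scaled counts for each gene, on a log axis, in the untreated pair (open) and the doxorubicin pair (filled); bars are exact 95% intervals for counting error only, and dashed lines mark 2-fold. Tap1, Tapbp, Nlrc5, H2-K1, H2-D1 and B2m lie below 1 in both pairs, and Psmb8, Psmb9 and Psmb10 lie above 2 in the untreated pair and below 1 in the doxorubicin pair.

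Inducible proteasome subunits formed a group of their own. Psmb8 was at 20.2, 31.4, 41.7 and 29.2 CPM. Psmb9 was at 3.97, 8.30, 9.99 and 5.76 CPM, from 79, 190, 172 and 114 counts. Psmb10 was at 19.7, 39.8, 47.7 and 33.8 CPM. All 3 genes had the same order of libraries, lowest in the wild-type untreated library, then deficient doxorubicin, wild-type doxorubicin and deficient untreated, so that the genotype groups overlapped for each of them. In the untreated pair, Psmb8 was 2.06-fold higher in the deficient library (1.82 to 2.33), Psmb9 2.52-fold higher (1.92 to 3.33) and Psmb10 2.42-fold higher (2.14 to 2.73). In the doxorubicin pair the same ratios were 0.928 (0.830 to 1.04), 0.695 (0.546 to 0.881) and 0.849 (0.767 to 0.939). The fit over all libraries averages both pairs and takes the difference between them as error, and it called none of these genes. The log2 fold changes were 0.46 for Psmb8, 0.40 for Psmb9 and 0.51 for Psmb10, with edgeR adjusted p of 0.277, 0.681 and 0.262. The rule of size for Psmb8 in the untreated pair rested on the scaling, since its log2 ratio of 1.01 became 0.71 with the deposited TPM values and 0.96 with total counts.

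The constitutive subunits that the inducible ones replace, Psmb5, Psmb6 and Psmb7, varied less. Psmb5 was at 438, 402, 411 and 457 TPM, Psmb6 at 584, 668, 609 and 666 TPM, and Psmb7 at 147, 168, 143 and 164 TPM. Psmb8 made up 7.43, 11.5, 12.3 and 9.01% of the summed TPM of Psmb8 and Psmb5. Psmb9 made up 0.763, 1.47, 1.95 and 1.05% of the sum with Psmb6, and Psmb10 made up 22.2, 28.4, 39.2 and 26.6% of the sum with Psmb7. The inducible share was thus lowest in the wild-type untreated and highest in the deficient untreated library for all 3 pairs, and these are RNA shares with no replicate. None of the 8 constitutive, activator and assembly genes examined was called between genotypes by edgeR at an adjusted p of at most 0.05. Of all genes, 12.6% were called higher and 10.6% lower, so 0 of 8 says little about these genes. Among them Psme1, a subunit of the interferon-inducible proteasome activator, had a log2 fold change of 0.41 (edgeR adjusted p = 0.112), and Psme3, of another activator, -0.40 (0.0527). Psme4 and the assembly factor Pomp were at -0.29 and 0.09.

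**Figure D3:**
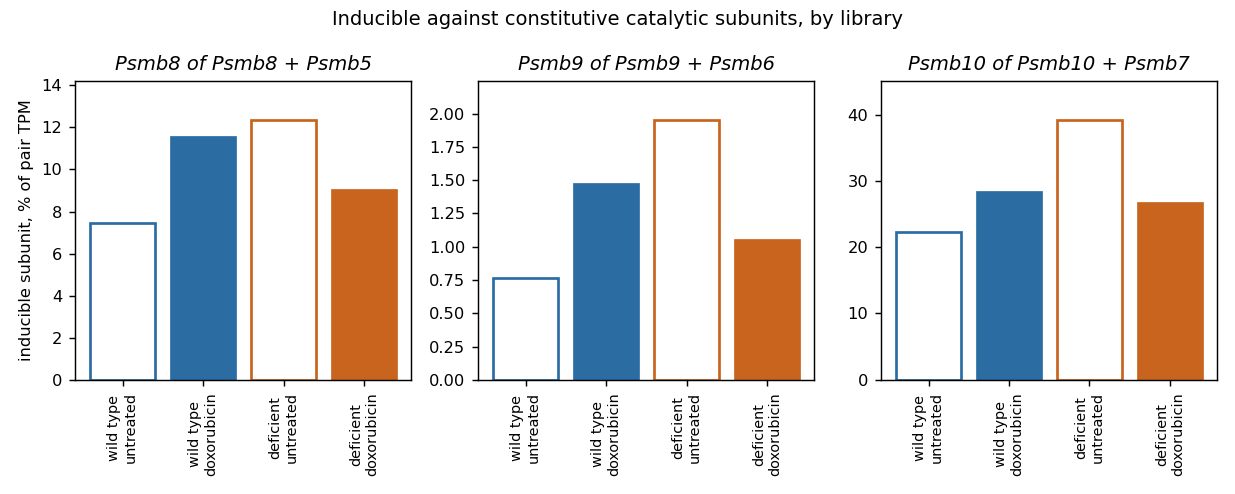
Share of the inducible subunit in the summed TPM of each inducible and constitutive pair, in percent, 1 bar a library and with no error because each label has 1 library; white bars are untreated and filled bars doxorubicin, blue edges wild type and orange edges deficient. Each pair is lowest in the wild-type untreated library (7.43, 0.763 and 22.2%) and highest in the deficient untreated library (12.3, 1.95 and 39.2%).

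Nlrc5, the class I transactivator, had the fewest counts of the 10 genes in every library but the wild-type untreated one. It had 284, 176, 69 and 33 counts, or 14.3, 7.69, 4.01 and 1.67 CPM. The libraries were in descending order, and both deficient-labelled libraries lay below both wild-type-labelled ones. Nlrc5 was 3.56-fold lower in the deficient untreated library (2.73 to 4.70) and 4.61-fold lower in the doxorubicin pair (3.16 to 6.90). Over all libraries its log2 fold change was -2.01 (SE 0.518, edgeR adjusted p = 0.0102). The call depended on the scale and the fit: without the treatment term edgeR's adjusted p was 0.0557, and limma on the deposited TPM gave a log2 fold change of -0.62 with an adjusted p of 0.280, in a range over the alternatives from 0.00192 to 0.280. The deposited TPM of Nlrc5 were 5.45, 1.77, 2.39 and 1.23, so that on this scale the wild-type doxorubicin library lay below the deficient untreated one and the groups overlapped, with log2 ratios between genotypes of -0.93 in the untreated and -0.31 in the doxorubicin pair. The noncoding gene 9330175E14Rik, which shares 748 bases with Nlrc5, was also lower in the deficient-labelled libraries; its part in the Nlrc5 counts was not tested.

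On scaled counts, H2-K1, H2-D1, B2m, Tap1, Tapbp and Nlrc5 differed less between treatment labels than between genotype labels. By size, 4.08% of all genes were higher and 5.45% lower in the doxorubicin library of the wild-type pair, and 1.58% were higher and 1.93% lower in the deficient pair. None of the 10 genes met the rule in either pair, with median log2 ratios of -0.13 in the wild-type pair and -0.31 in the deficient pair. Of all genes, edgeR called 0.0192% higher and 0.141% lower between treatment labels, and none of the 10. With DESeq2's size factors in the same edgeR fit the split of all genes moved from 3 higher and 22 lower to 22 and 55. At an unadjusted p under 0.05 edgeR's quasi-likelihood test found 2 of the 10 genes, B2m and H2-D1, against 5.54% of all genes, both with lower values under the doxorubicin label. DESeq2 and limma-voom called none of the 10 either. All of these comparisons hold the difference in sex genes between the labels.

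Psmb8, Psmb9 and Psmb10 had ratios of opposite sign in the 2 genotypes. In the wild-type pair the doxorubicin library was 1.55-fold higher for Psmb8 (1.37 to 1.76), 2.09-fold higher for Psmb9 (1.60 to 2.76) and 2.02-fold higher for Psmb10 (1.79 to 2.27). In the deficient pair it was 1.43-fold lower for Psmb8 (1.28 to 1.60), 1.73-fold lower for Psmb9 (1.36 to 2.22) and 1.41-fold lower for Psmb10 (1.27 to 1.57). The difference of the log2 ratios, deficient minus wild type, was -1.11 for Psmb8, -1.61 for Psmb9 and -1.46 for Psmb10. These were the only 3 of the 10 genes at or beyond a difference of 1 in size, which 6.05% of all genes reached downward and 7.66% upward. On the deposited TPM the difference for Psmb8 was -0.91, short of the rule. Tapbp also had opposite signs, at -0.15 in the wild-type and 0.20 in the deficient pair, which makes 4 of the 10 genes, against 48.5% of all genes. The 4 libraries leave no degree of freedom to test such a difference.

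Nlrc5 had the lowest doxorubicin over untreated ratio in both genotypes, with log2 ratios of -0.81 in the wild-type and -0.91 in the deficient pair. The ratios of H2-K1 (-0.10 and -0.18), H2-D1 (-0.17 and -0.30), B2m (-0.23 and -0.33) and Tap2 (-0.03 and -0.21) were small and below 0 in both pairs. Tap1 was at -0.29 in the wild-type pair and 0.00 in the deficient pair.

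**Figure D4:**
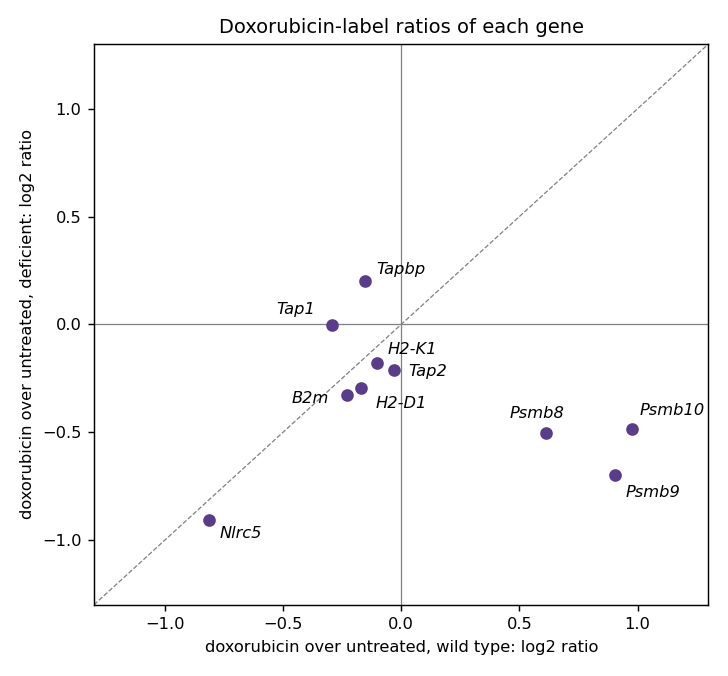
Log2 ratio of doxorubicin over untreated (CPM + 1) for each of the 10 genes in the wild-type pair (horizontal) and the deficient pair (vertical), 1 point a gene and no error because each label has 1 library; the dashed line marks equal ratios. Psmb8, Psmb9 and Psmb10 lie at the lower right, away from the line by 1.11 to 1.61, and Nlrc5 lies near the line at -0.81 and -0.91.

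The other genes of the pathway were taken from lists by role. Of 17 further class I heavy chain genes, 10 were tested and edgeR called none between genotypes, with a median log2 fold change of -0.61 against -0.01 over all genes tested. H2-T24 was at 9.54, 8.60, 2.50 and 3.74 CPM, with a log2 fold change of -1.56 (SE 0.547, edgeR adjusted p = 0.0510). H2-Q7 (-0.97, edgeR adjusted p = 0.153) and H2-Q6 (-1.17, 0.383) were likewise below 0, and H2-M3, which presents formylated peptides, was above it (1.31, 0.247). These are low genes, and H2-Q6 and H2-Q7 share sequence with H2-K1 and H2-D1. Sequence shared by H2-T24 and H2-M3 was not measured.

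Among 9 loading partners tested, 2 were called higher and 2 lower in the deficient-labelled libraries, against 12.6% and 10.6% of all genes, with a median of -0.23. Canx, which encodes the chaperone calnexin that folds new heavy chains, was at 879, 798, 454 and 470 CPM, a log2 fold change of -0.86 (edgeR adjusted p = 1.1e-05). Ide, a cytosolic peptidase, was at 60.8, 48.7, 126 and 141 CPM, a log2 fold change of 1.29 (edgeR adjusted p = 3.14e-05). The peptidase genes Thop1 (0.68) and Lnpep (-0.50) were also called, in opposite directions, at edgeR adjusted p of 0.0145 and 0.0342.

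Of 16 regulators of class I transcription tested, 3 were called higher and 2 lower, shares near those over all genes (12.6% and 10.6%), with a median of 0.00. Nfyb, a subunit of the factor that binds CCAAT, was at 76.8, 66.6, 32.6 and 30.0 CPM, a log2 fold change of -1.19 (edgeR adjusted p = 0.000336). Its partner subunit gene Nfyc changed the other way (0.85, edgeR adjusted p = 0.00545), as did Irf9 (0.82, 0.0312), the DNA-binding part of the type I interferon signal. Irf1, which binds interferon-stimulated response elements, was at 17.3, 20.0, 26.8 and 27.4 CPM and was not called (0.54, edgeR adjusted p = 0.180).

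Interferon receptors and their signalling genes had 1 called higher and 1 lower of 10 tested, near the shares over all genes (12.6% and 10.6%). Ifngr2, a chain of the interferon gamma receptor, was at 123, 103, 56.8 and 51.4 CPM, a log2 fold change of -1.06 (edgeR adjusted p = 0.000138), and Socs3, a feedback inhibitor of cytokine signalling, was at 21.3, 30.0, 62.9 and 44.0 CPM (1.05, edgeR adjusted p = 0.00714). None of 5 interferon genes reached a mean of 1 CPM: Ifng, Ifnb1, Ifnl2 and Ifnl3 had 0 counts in each library, which allows up to 0.131 to 0.174 CPM, and Ifna4 had 7 counts in the wild-type doxorubicin library and 0 in the others.

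Of 31 interferon response genes tested, 6 were called lower and 1 higher, against 10.6% and 12.6% of all genes, with a median of -0.47. Igtp, an interferon-induced GTPase, was at 87.7, 121, 28.9 and 26.5 CPM, a log2 fold change of -1.90 (edgeR adjusted p = 3.41e-06). Xaf1 was at 20.7, 26.1, 6.33 and 4.70 CPM (-2.09, edgeR adjusted p = 0.000744), and Usp18, a brake on the type I interferon receptor, at 39.4, 53.4, 12.8 and 18.5 CPM (-1.58, edgeR adjusted p = 0.000209). Mx2 had 42, 92, 5 and 6 counts (-3.28, edgeR adjusted p = 0.0542). By size, 8 of the 31 were lower and none higher in the untreated pair, and 10 were lower and none higher in the doxorubicin pair, where 10.2% and 9.55% of all genes were lower. Of 7 MHC class II presentation genes tested, 2 were called lower and none higher, against 10.6% and 12.6% of all genes. Cd74, the invariant chain, was at 45.0, 34.2, 19.3 and 15.7 CPM (-1.18, edgeR adjusted p = 0.00284), and H2-Eb1 had 119, 194, 14 and 34 counts (-2.57, edgeR adjusted p = 0.0152). H2-DMa (-0.87) and H2-DMb1 (0.99) were not called. Between treatment labels edgeR called no gene of any of these pathway lists.

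**Figure D5:**
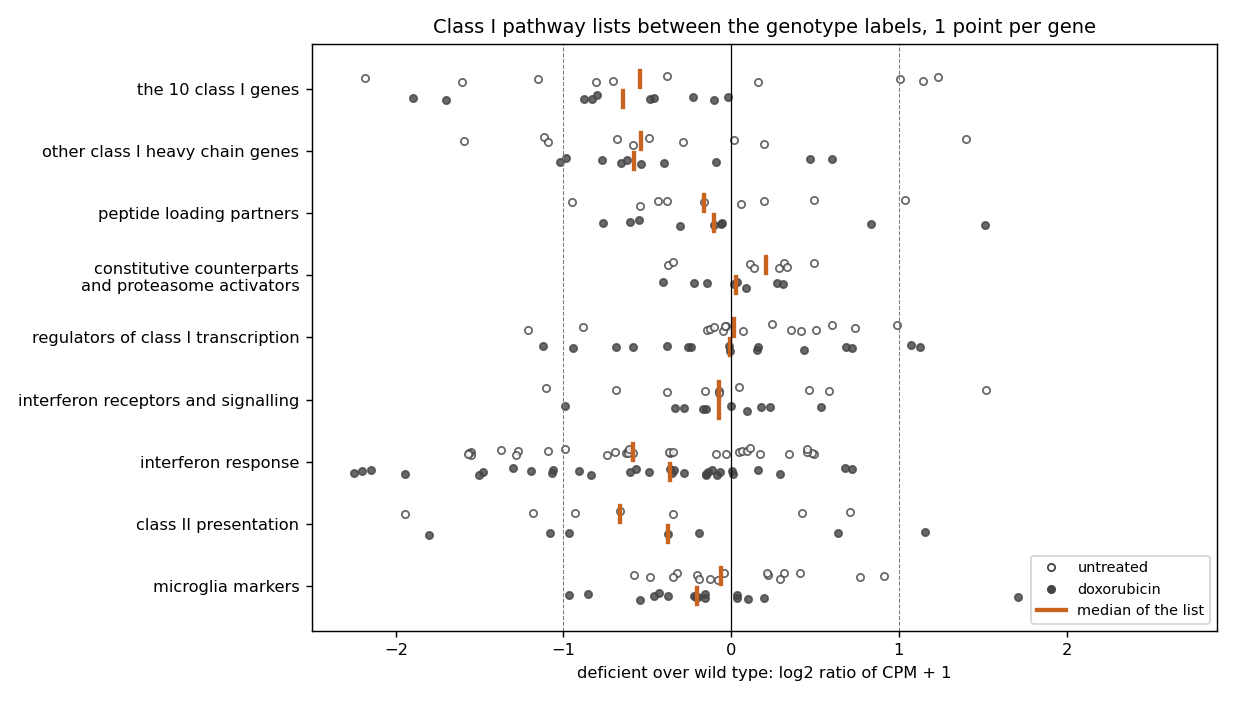
Log2 ratio of deficient over wild type (CPM + 1) for each tested gene of the class I genes, the related pathway lists and the microglia markers, 1 point a gene, open for the untreated and filled for the doxorubicin pair; orange bars are list medians and dashed lines mark 2-fold. The medians of the 10 class I genes lie at -0.54 and -0.64 and those of the interferon response genes at -0.58 and -0.36, while the regulators centre near 0.

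Markers of other cell types were measured as well, since many cell types express class I genes, and in bulk RNA fewer cells of a type and less RNA per cell cannot be told apart. All 16 microglia markers had counts in every library, and their summed level was 6305, 4593, 5620 and 3546 CPM. Most of this sum was Lyz2, with a mean of 3696 CPM. The sum was lower under the doxorubicin label in both genotypes, and lower in the deficient than in the wild-type library of each treatment label. In the untreated genotype pair, 7 of the 16 log2 ratios were above 0 and 9 below, with a median of -0.06. In the doxorubicin pair 5 were above and 11 below, with a median of -0.20. Between genotypes edgeR called 3 of 16 microglia markers lower and 1 higher, against 10.6% and 12.6% of all genes. Their median log2 fold change was -0.13, and 11 of 16 were below 0. Lyz2 and C1qb were the microglia markers called lower between treatment labels by edgeR (log2 fold changes of -0.57 and -0.65, adjusted p = 0.00213 and 0.0377). The treatment test called 0.141% of all genes lower and 0.0192% higher. All 16 microglia markers were below 0 in it, with a median log2 fold change of -0.57. The summed level of the 10 class I genes was 2842, 2561, 1783 and 1529 CPM, with genotype groups that did not overlap. Endothelium and pericyte markers summed to 72.1, 36.9, 51.5 and 49.8 CPM, with 1, 2, 4 and 2 of 10 at 0 counts. Of 6 tested, edgeR called 1 lower and none higher between genotypes, against 10.6% and 12.6% of all genes. Of the 6, 5 were below 0, with a median of -0.87, the direction of the class I genes. Fibroblast and meninges markers summed to 1125, 936, 1013 and 938 CPM, with 2, 2, 0 and 0 of 10 at 0. Of 8 tested, edgeR called 1 higher and none lower, against 12.6% and 10.6% of all genes. Oligodendrocyte lineage markers summed to 473.5, 346, 1073 and 1069 CPM and neuron markers to 227, 201, 407 and 433 CPM, with 1, 3, 0 and 0 of 10 and 3, 2, 0 and 1 of 8 at 0. Astrocyte markers summed to 4041, 3947, 11322 and 10019 CPM, of which Gfap had the highest mean (3504 CPM). The astrocyte, oligodendrocyte and neuron sums were therefore higher in both deficient-labelled libraries, the opposite direction to that of the class I genes. Between genotypes edgeR called 8 of 10 astrocyte, 9 of 10 oligodendrocyte lineage and 4 of 7 neuron markers higher. It called none of them lower, against 12.6% of all genes higher and 10.6% lower. In each genotype pair 1 of the 7 neuron markers was lower by size. T and NK cell markers were at 0 counts for 9, 10, 10 and 10 of 10 genes. The part of any of these cell types, of the p53 target and mitosis difference or of sex in the class I values was not tested.

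Other genes of the MHC region are given for comparison. Between the start of Tapbp and the end of H2-D1 on chromosome 17, 63 other genes were tested. edgeR called 8 of them higher and 7 lower in the deficient-labelled libraries, shares near those over all genes (12.6% and 10.6%), with a median log2 fold change of 0.05. By size, 4 were higher and 6 lower in the untreated pair, and 5 and 4 in the doxorubicin pair.

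The 10 genes did not share 1 profile over the libraries. Their mean log2 profile, centred over the libraries, was 0.23, 0.30, -0.10 and -0.44. B2m was the nearest of the 10 to this mean (root mean square distance 0.117 on the log2 scale), followed by H2-D1 (0.145) and H2-K1 (0.175), and Tap1 was the farthest (0.773). Among 11288 other genes whose mean reached 5 CPM, the nearest by the same distance over the 4 libraries were Fam219a (0.0197), Trappc12 (0.0283), Rabif (0.0287), Sf3a2 (0.0324), Ube2q2 (0.0364) and Mcoln1 (0.0367). With 4 libraries such likeness is common, since 10042 of the 11288 genes were nearer to the mean profile than the farthest of the 10 class I genes was.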

How the data were processed

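RNA of 4 libraries of primary cultured mouse astrocytes was measured after preparation with a SMART-Seq v4 kit, per the labels' protocols. For every library the authors deposited a table of genes with 2 columns, an estimated count and a TPM value, as its header states. The submitters' processing notes name DRAGEN and GRCm38; the role and version of DRAGEN and the annotation are stated in no source used here. The value columns of all tables were matched to samples.

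The deposited estimated counts were rounded to whole numbers and scaled with the TMM factors of edgeR 4.0.16 (R 4.3.3). The 10 genes and all lists were chosen with earlier results of these data known. Symbols came from GENCODE vM21 for 55141 of 55487 identifiers; 1 of the 10 genes (H2-D1) had another version there. Single libraries were compared by size, with a pseudocount of 1 CPM, and the additive test of genotype and treatment used the quasi-likelihood F test of edgeR, adjusted by Benjamini-Hochberg over the 15596 genes whose mean reached 1 CPM. Alternatives were DESeq2 1.42.0, limma 3.58.1 (limma-voom, and limma on log2 of the deposited TPM + 1), other scalings, pseudocounts, minimum levels and a fit without the other factor.

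Besides the 10 genes, the text names up to 4 genes of each pathway list with the largest mean absolute genotype ratio, markers by mean CPM (up to 3 of each list, of which those beside a result are printed), Creb3l1, Cdkn1a, Xist, Irf1, and the 6 genes nearest in profile; overlapping genes, Psmb5, Psmb6, Psmb7 and the interferon genes were added for their relation to the 10. A gene that met the rule is not reported here. Promoter windows are RefSeq's, and sequences were aligned with biopython 1.88. Depth was 17481188 to 22559613 counts, and intervals and floors cover counting error only because each label has 1 library. The intervals take counts as independent of each other. Copies of 1 molecule cannot be told apart because reads carry no molecular identifiers.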

Additional observations from a re-analysis of the deposited data

Results flagged for a closer look

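For 4 of the 10 genes the single doxorubicin over untreated ratios had opposite signs in the wild-type and the deficient pair, as they did for 48.5% of all genes. The difference of the log2 ratios, deficient minus wild type, was -1.61 for Psmb9, -1.46 for Psmb10, -1.11 for Psmb8 and 0.35 for Tapbp. Each genotype has 1 library a treatment label, and none of these differences was tested. Sex genes differ between the treatment labels in both genotypes, and the part of sex in these ratios was not tested.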

How the results depend on the processing

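No result for the 10 genes changed direction where it had been called. Of the counts of genes past a rule, 98 of 102 values under alternatives stayed within 1.5 times. With a pseudocount of 5 CPM, 1 gene in place of 3 was higher by size in the deficient untreated library and 1 in place of 2 was lower in the deficient doxorubicin library. With the deposited TPM, 1 gene in place of 0 (Nlrc5, log2 ratio -1.22) was lower under doxorubicin in the wild-type pair. With a pseudocount of 0.5 CPM, 1 in place of 0 (Nlrc5, -1.06) was lower in the deficient pair. Over all genes, a pseudocount of 5 CPM took the calls by size from 3115 to 1406 in the untreated and from 3160 to 1490 in the doxorubicin genotype comparison, and from 1486 to 226, 547 to 42 and 2137 to 480 in the treatment comparisons and their difference. Calls between treatment labels ran from 0 to 99 over the alternatives, against 25. The deposited TPM moved the median log2 ratio of all genes to -0.20 in the untreated genotype comparison, from -0.03. No paired analysis was possible because each group holds 1 library and no replicate number. The additive fit compares genotypes within treatment labels, and without that term the genotype calls of B2m and Nlrc5 were lost. No library could be left out of a single pair for the same reason. Depth limits Nlrc5 and Psmb9 most, with 33 to 284 and 79 to 190 counts.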
